A study of Homo sapiens with 6 samples.

Results

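The genes described are 10 regulators of cell cycle entry in HCT116, a human colon cancer cell line, namely the D-type cyclins CCND1, CCND2 and CCND3, their kinases CDK4 and CDK6, the kinase CDK2 with its cyclins CCNE1 and CCNE2, and the inhibitors CDKN1B and CDKN2C. They were chosen by name, as genes of the G1 phase that include CCND1, a reported target of the RNA-binding protein IGF2BP3. All 10 were found among the 62710 Ensembl genes of the deposited tables. The RNA came from 6 libraries of HCT116 cells that had been infected with lentivirus and selected with puromycin, 3 carrying a scrambled control (sh-NC) and 3 carrying an shRNA against IGF2BP3 (sh-IGF2BP3). Infection, selection and cell line were thus shared by both groups, and the knockdown rested on a single shRNA sequence. No label says that the libraries of a group came from separate cultures, so p-values measure only the spread between these libraries, which may be technical.

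In G1, a D-type cyclin joins CDK4 or CDK6 and starts the phosphorylation of the retinoblastoma family proteins, which releases E2F transcription factors. E2F in turn drives the E-type cyclins, which activate CDK2, and the genes for DNA replication. CDKN2C (p18) belongs to the INK4 inhibitors, which bind CDK4 and CDK6, while CDKN1B (p27) belongs to the CIP/KIP inhibitors and blocks CDK2 complexes. Many of these proteins are also controlled by degradation and phosphorylation, which RNA levels do not show.

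The libraries held 16146718 to 23576469 counts on genes. Levels of a gene are given below in the order of libraries 1, 2 and 3 of each group. IGF2BP3, the target of the shRNA, averaged 81.6 ± 10.2 CPM in the control and 56.1 ± 3.98 CPM in the knockdown libraries (SD, n = 3 each), without overlap. CPM are counts scaled to a common library size by the TMM method of edgeR. The log2 fold change of IGF2BP3 was −0.54, which did not pass the threshold (adjusted p = 0.126, edgeR). The study also reports the knockdown in HCT116 by qPCR and Western blot, which are not part of these data. The most alike libraries of all crossed the groups, sh-NC 1 and sh-IGF2BP3 3, whose counts over genes had a chi-square divided by degrees of freedom of 10.3. The same measure was 33.6 and 60.6 for sh-NC 1 against the other control libraries, and 25.3 and 53.3 for sh-IGF2BP3 3 against the other knockdown libraries. Values without either library are given with the results that rest on them. In bulk RNA, fewer cells of a kind and less RNA per cell cannot be told apart. All 7 epithelial markers were detected, among them EPCAM at 163 to 241 CPM, and at an unadjusted p under 0.05 in edgeR 3 of them were higher and 1 was lower in the knockdown, against 13.6% and 8.54% of all genes tested. The leukocyte markers PTPRC, CD3E and CD79A did not exceed 0.041, 0.11 and 0.34 CPM, nor the fibroblast markers COL3A1 and DCN 0.31 and 0.10 CPM. The endothelial markers PECAM1 and VWF reached at most 1.64 and 2.66 CPM. The summed level of 3 tested markers of endothelial cells and fibroblasts, nearly all of it COL1A1 (28.0 to 58.5 CPM), ranged from 30.0 to 51.2 CPM in control and from 31.8 to 62.3 CPM in knockdown libraries, and the part of these markers in the results was not tested. Log2 fold changes (sh-IGF2BP3 over sh-NC) followed GC content (Spearman rho 0.61 across the tested genes, which are not independent), and results are therefore also given with that trend removed. For IGF2BP3 the value was then −0.22 and the groups overlapped. Whether the correction also takes away part of the effect of the knockdown was not tested.

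No member passed the thresholds used for a call, more than 1.5-fold with an adjusted p (Benjamini-Hochberg) under 0.05. In edgeR's quasi-likelihood test over 16753 genes, 0 of the 9 members tested were called, against 0% of all genes, and CCND2 had too few counts to be tested. At an unadjusted p under 0.05, 2 of the 9, CDK4 and CDKN2C, were higher in sh-IGF2BP3 libraries and 0 were lower, against 13.6% and 8.54% of all genes tested, or 22.2% in either direction. DESeq2 called 0 members, against 5.23% of the genes it tested, and at its adjusted p alone 4.22% of genes were higher and 1.02% lower. For 3 members, CCND3, CDK4 and CDKN2C, every knockdown library was above every control library, against 13.2% of all genes that were higher without overlap and 11% that were lower (24.2% together). The median log2 fold change of the 9 members was 0.27, with 8 above zero and CDK6 below it, and that of all tested genes was −0.014.

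**Figure D1:**
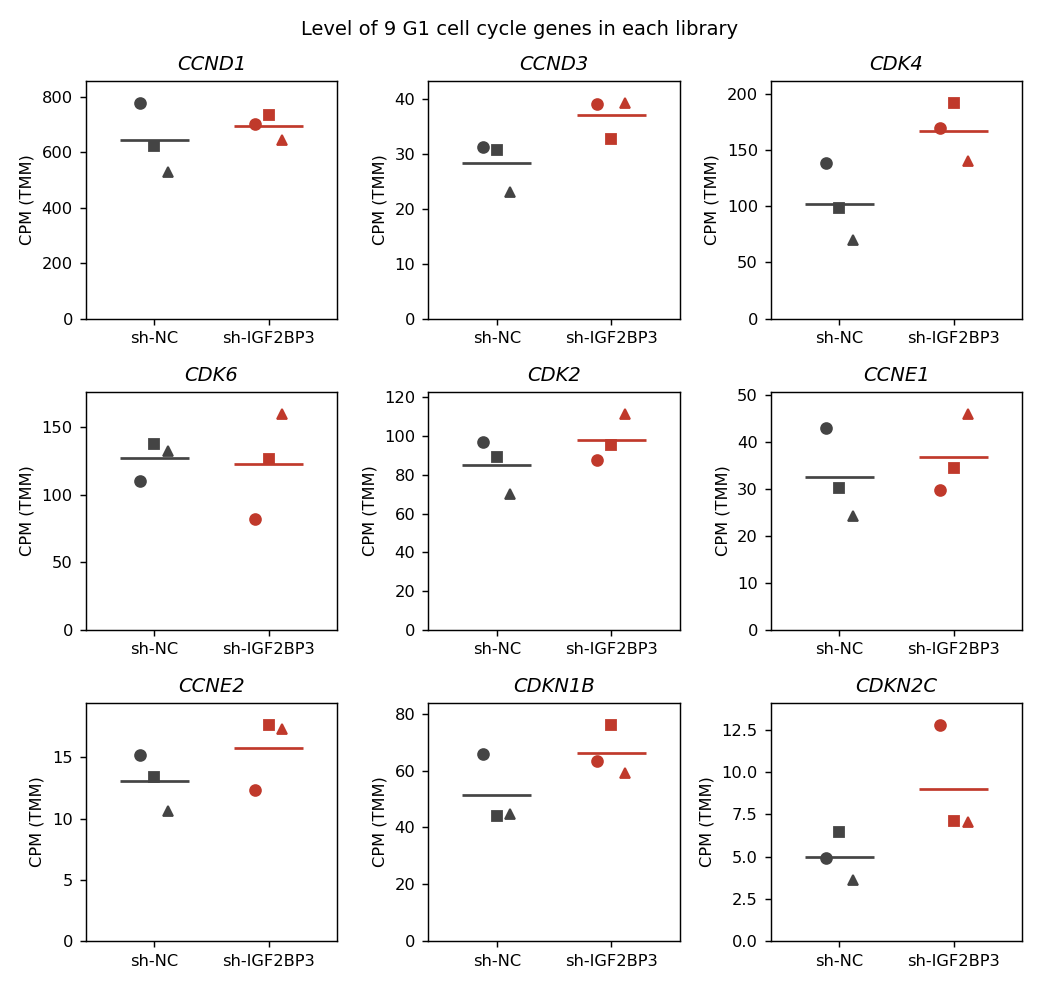
Level of the 9 tested members in CPM (vertical axes, linear, starting at 0) in the 3 sh-NC (grey) and 3 sh-IGF2BP3 (red) libraries. Circle, square and triangle mark libraries 1, 2 and 3, and lines mark group means. sh-NC 3 is the lowest of the 6 libraries for 7 members, and only CCND3, CDK4 and CDKN2C have no overlap between the groups.

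CCND1 (ENSG00000110092, chr11:69641156-69654474, plus strand, GRCh38) encodes cyclin D1, the cyclin that carries mitogen signals to CDK4 and CDK6. The control libraries gave 779, 623 and 531 CPM and the knockdown libraries 702, 734 and 643 CPM. The sh-IGF2BP3 libraries all lay inside the range of the sh-NC libraries, whose spread was wider. The averages, 644 ± 126 and 693 ± 46.0 CPM (SD, n = 3 each), were not distinguished, and the two-sided exact permutation test gave p = 0.6. The log2 fold change was 0.11 (± 0.198 standard error, edgeR adjusted p = 0.779), with a 95% interval from −0.32 to 0.53. The lower limit rested on single libraries, being −0.54 without sh-NC 2, −0.48 without sh-NC 3 and −0.16 without sh-NC 1. LTO1, on the opposite strand, overlaps 10.5% of its span and had 2407 counts over the 6 libraries against 74098 for CCND1. Without sh-NC 3 the value was −0.04, and without sh-NC 1 it was 0.27. With 12 alternatives that used all 6 libraries, it stayed between 0.04 and 0.16.

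CCND2 (ENSG00000118971, chr12:4269771-4305353, plus strand) encodes cyclin D2. It had 1 count in sh-NC 1 and 0 counts in the other 5 libraries, where 3 counts would correspond to 0.127 to 0.186 CPM. A second protein-coding gene on the same strand, ENSG00000285901, covers 88.8% of its span and also had 1 count in all. The counts assigned to CCND2 were thus under 3 in every library of both groups. How reads shared with ENSG00000285901 were counted is not given in the sources used here, so the level of CCND2 mRNA itself is less certain.

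CCND3 (ENSG00000112576, chr6:41934934-42050357, minus strand) encodes cyclin D3. The control libraries gave 31.3, 30.7 and 23.0 CPM and the knockdown libraries 39.2, 32.7 and 39.4 CPM. Every sh-IGF2BP3 library was above every sh-NC library, with sh-IGF2BP3 2 just above sh-NC 1 (exact permutation p = 0.1, two-sided, which is the lowest value that 3 against 3 libraries can give). On the log2(FPKM + 1) scale sh-NC 2 lay above sh-IGF2BP3 2, and the groups also overlapped under TMM with at least 10 counts in every library. The log2 fold change was 0.39 (± 0.201 standard error, edgeR adjusted p = 0.269). The longest CCND3 transcript has a GC content of 56.2%, against a median of 48.7% for all tested genes. With the trend in GC content and gene length removed the log2 fold change was 0.19 and the groups overlapped, and with the principal transcript used for that correction it was 0.01.

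The D-type cyclins can be set beside each other only per gene length, as FPKM, which divides the counts by library total and gene length. Cyclin D1 made up nearly all of the D-type cyclin mRNA as counted. Its share of the summed FPKM was 96.8%, 96.1% and 96.5% in the controls against 95.6%, 96.4% and 95.2% in the knockdown, with overlap. The share depended on the length used, since the FPKM of CCND3 rests on 5761 bases and its principal transcript has 2085. Per kilobase of principal transcript it was 90.8% to 92.3% in the controls and 88.8% to 91.6% in the knockdown, again with overlap. Summed, the D-type cyclins reached 143 ± 18.1 FPKM in the controls against 148 ± 9.17 FPKM in the knockdown (SD, n = 3 each), again overlapping.

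CDK4 (ENSG00000135446, chr12:57747727-57756013, minus strand) encodes the main partner of cyclin D1 in many epithelial cells. The control libraries gave 138, 98.6 and 70.3 CPM and the knockdown libraries 169, 192 and 140.2 CPM. All sh-IGF2BP3 libraries were above all sh-NC libraries, but sh-IGF2BP3 3 lay close to sh-NC 1, and they overlapped when TMM was run without a filter on low counts or with a stricter one. The averages were 102 ± 34.1 and 167 ± 26.0 CPM (SD, n = 3 each), a ratio of 1.63 (two-sided exact permutation test, p = 0.1). The log2 fold change was 0.71 (± 0.232 standard error). The adjusted p was 0.124 with edgeR and 0.069 with DESeq2, and its alternatives spanned 0.00639 to 0.678. The lowest value came without sh-NC 1, when the log2 fold change was 0.99 and 10% of all genes tested passed an adjusted p of 0.05 as higher and 5.75% as lower. Without sh-NC 3 it was 0.47 (adjusted p = 0.439, edgeR), and without sh-IGF2BP3 3 it was 0.80 (adjusted p = 0.113, edgeR). With the GC and length trend removed it was 0.52, and sh-IGF2BP3 3 then lay below sh-NC 1. Genes on the opposite strand, TSPAN31 and MARCHF9, overlap 30.1% and 10.99% of the span of CDK4, with 1535 and 1955 counts over the 6 libraries against 14577 for CDK4. Whether reads were assigned by strand is not given in the sources used here.

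CDK6 (ENSG00000105810, chr7:92604921-92836573, minus strand) encodes the second kinase of the D-type cyclins. The control libraries gave 110.2, 138 and 133 CPM and the knockdown libraries 81.9, 126 and 159.9 CPM. The lowest and the highest library were both sh-IGF2BP3 libraries, so that the group means, 127 ± 14.6 and 123 ± 39.1 CPM (SD, n = 3 each), lay within the spread (two-sided exact permutation test, p = 0.8). The log2 fold change of −0.05 (± 0.225 standard error, edgeR adjusted p = 0.917) had a 95% interval from −0.53 to 0.43. CDK6 has a long AU-rich message, with a GC content of 39.5% and 11612 bases, and the sign of its fold change depended on the correction, being 0.32 with the GC and length trend removed and 0.40 with that of the principal transcript. No adjusted p of CDK6 was under 0.05 in any setting.

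CDK4 exceeded CDK6 per gene length in all 6 libraries. The ratio of their FPKM values was 4.96, 2.83 and 2.10 for the controls against 8.18, 6.01 and 3.47 for the knockdown. The highest sh-NC ratio lay above the lowest sh-IGF2BP3 ratio, so the groups overlapped. The summed FPKM of both kinases was 36.7 to 51.5 in sh-NC and 56.5 to 68.5 in sh-IGF2BP3 libraries, without overlap, most of it from CDK4. The sum was taken without trend correction, and the groups overlapped for CDK4 itself once the GC and length trend was removed.

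CDK2 (ENSG00000123374, chr12:55966781-55972789, plus strand) encodes the kinase that works with the E-type cyclins at the start of S phase. The control libraries gave 96.7, 89.1 and 69.9 CPM and the knockdown libraries 87.4, 95.6 and 112 CPM. The groups overlapped, with a log2 fold change of 0.20 (± 0.191 standard error, edgeR adjusted p = 0.546) and a 95% interval from −0.20 to 0.61. All of CDK2 lies inside the span of PMEL on the opposite strand, which had 573 counts over the 6 libraries against 10194 for CDK2.

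CCNE1 (ENSG00000105173, chr19:29811991-29824312, plus strand), which encodes cyclin E1, measured 42.8, 30.1 and 24.3 CPM in the controls against 29.7, 34.3 and 45.9 CPM in the knockdown. Its log2 fold change was 0.18 (± 0.237 standard error, edgeR adjusted p = 0.677). The range of each group covered most of the other, and the sign turned without sh-NC 3 (−0.01) and without sh-IGF2BP3 3 (−0.04).

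CCNE2 (ENSG00000175305, chr8:94879770-94896678, minus strand), which encodes cyclin E2, measured 15.2, 13.4 and 10.6 CPM in the controls against 12.4, 17.7 and 17.3 CPM in the knockdown. Its log2 fold change was 0.27 (± 0.244 standard error, edgeR adjusted p = 0.530), and sh-IGF2BP3 1 lay below 2 sh-NC libraries. CCNE2 has the lowest GC content of the members, 36.9%, and was the member whose groups stopped overlapping once the GC and length trend was removed. Corrected levels were 15.1, 11.5 and 9.18 CPM in the controls against 15.7, 18.3 and 17.9 CPM in the knockdown, with a log2 fold change of 0.54 (± 0.211 standard error). INTS8 and NDUFAF6, on the opposite strand, overlap 11.7% and 6.78% of the span of CCNE2. They had 10771 and 2298 counts, against 1593 for CCNE2, so reads from these genes cannot be told apart without knowledge of strand. Cyclin E1 exceeded cyclin E2 per gene length in every library, with FPKM ratios of 4.00 to 5.04 in sh-NC and 3.47 to 4.74 in sh-IGF2BP3 libraries.

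CDKN1B (ENSG00000111276, chr12:12685498-12722369, plus strand) measured 65.9, 43.9 and 44.7 CPM in the controls against 63.4, 76.1 and 59.2 CPM in the knockdown. sh-NC 1 stood with the sh-IGF2BP3 libraries, above 2 of them. The means were 51.5 ± 12.5 and 66.2 ± 8.79 CPM (SD, n = 3 each), with a log2 fold change of 0.36 (± 0.205 standard error, edgeR adjusted p = 0.308). Without sh-NC 1 the value was 0.58 (adjusted p = 0.052), and without sh-NC 3 it was 0.25. Removal of the GC and length trend gave 0.51, with the groups still overlapping. GPR19 overlaps 29.05% of its span on the opposite strand but had only 142 counts, against 6419 for CDKN1B.

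CDKN2C (ENSG00000123080, chr1:50960745-50974634, plus strand) had the fewest counts of the members tested, 71 to 224 per library. The control libraries gave 4.91, 6.44 and 3.63 CPM and the knockdown libraries 12.8, 7.13 and 7.04 CPM. sh-IGF2BP3 1 stood far above the other two, which were just above sh-NC 2. The means were 4.99 ± 1.41 and 8.99 ± 3.30 CPM (SD, n = 3 each), a ratio of 1.80 (two-sided exact permutation test, p = 0.1). The log2 fold change of 0.85 (± 0.32 standard error, edgeR adjusted p = 0.151) was the highest of the members, and it was 0.50 without sh-IGF2BP3 1. The longest transcript of CDKN2C has the highest GC content among those of the members, 58.1%, although the principal transcript of CCND3 has 60.0%. With the GC and length trend removed its log2 fold change was 0.45, with sh-IGF2BP3 2 and 3 below sh-NC 2.

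Short matches in the 3′ UTRs of the members were looked up for the reagents of the study, the shRNA and miR-98-5p, an miRNA of the let-7 family that the study links to IGF2BP3. The shRNA sequence is given by the study and the miRNA sequence by RefSeq (GRCh38.p14), 5′ to 3′. Capitals mark the 7 bases of the shRNA that would pair with bases 2 to 8 of a guide strand complementary to it, and the seed (bases 2 to 8) of the miRNA.
sh-IGF2BP3: ggctcagggaaGAATTTAt
hsa-miR-98-5p: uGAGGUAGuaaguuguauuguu
The complete shRNA sequence was in none of the members' principal transcripts of GENCODE 29, and in that of IGF2BP3. The letters GAATTTA, read on the transcript strand only, were in the 3′ UTR of CDK6 at 3 places and of CDKN1B at 1, and in 15.0% of the 13097 tested protein-coding genes with a principal transcript. The 3′ UTR of CDK6 has 10219 bases, against a median of 1059 over these genes. The sites are shown with the match in capitals and the flanking bases in lower case, with the GRCh38 position of the match.
CDK6, chr7:92614392-92614398, minus strand: cagaatgctGAATTTActtgttgt
CDK6, chr7:92612880-92612886, minus strand: ctacaaattGAATTTAaaaactca
CDK6, chr7:92607771-92607777, minus strand: tagtacatgGAATTTAtagcatca
CDKN1B, chr12:12721692-12721698, plus strand: ttaaagttgGAATTTAccagttaa
The log2 fold changes of these genes, −0.05 and 0.36, were not past the threshold. The letters CTACCTC, the complement of the miR-98-5p seed, were in the 3′ UTR of none of the 10 members. They were in 9.91% of the same 13097 genes, which include 9 of the members. Other kinds of seed match and transcripts other than the principal one were not searched. The 3′ UTR of IGF2BP3 held the letters once.
IGF2BP3, chr7:23311796-23311802, minus strand: tttactcaaCTACCTCaggtattc

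**Figure D2:**
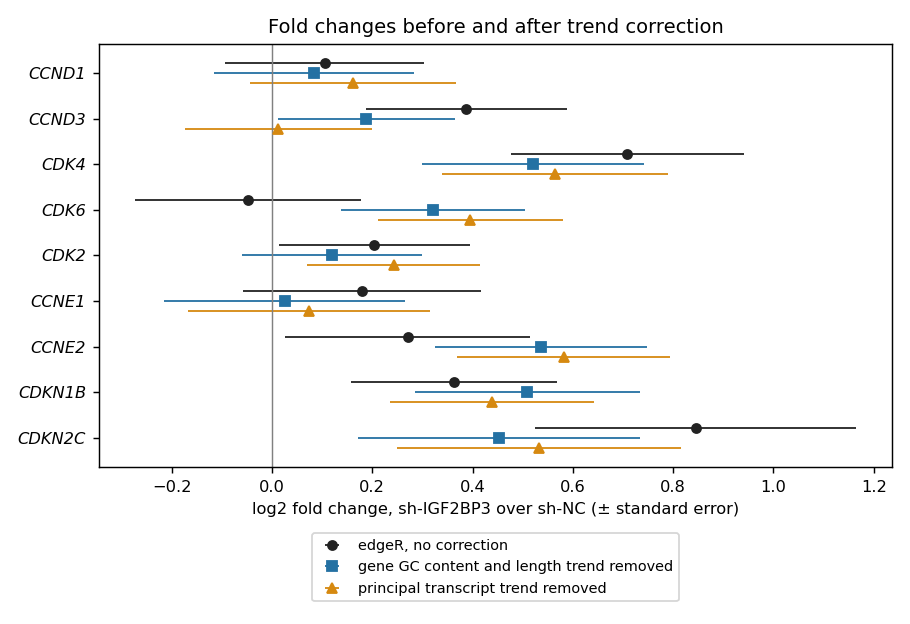
Log2 fold change of the 9 tested members (horizontal axis, sh-IGF2BP3 over sh-NC), with bars for the standard error, in edgeR without correction (black circles), with the trend in gene GC content and length removed (blue squares) and with that of the principal transcript removed (orange triangles). CDK4 stays between 0.52 and 0.71, CDK6 moves from −0.05 to 0.32 and 0.40, and CDKN2C from 0.85 to 0.45 and 0.53.

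The members spread along the GC axis of the libraries. Without correction, the highest fold changes belonged to CDKN2C and CDK4, whose longest transcripts have a GC content of 58.1% and 53.6%, and the lowest belonged to CDK6 at 39.5%. The order was not that of GC content throughout, since CCNE2, at 36.9% the lowest of the members, had the median fold change of 0.27. With the trend in GC content and gene length removed, all 9 members had a log2 fold change above zero, from 0.03 for CCNE1 to 0.54 for CCNE2, with a median of 0.32 against 0.01 for all genes. At an unadjusted p under 0.05 there were then 3 members, CDK4, CCNE2 and CDKN1B, against 10.5% of all genes tested, and CCNE2 was the single member without overlap, against 15.2% of all genes. The correction for the principal transcript left CDK4 and CCNE2 at that level, against 10.4% of all genes, and CCNE2 again without overlap, against 14.9%. No adjusted p of a member was under 0.05 with either correction in edgeR.

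**Figure D3:**
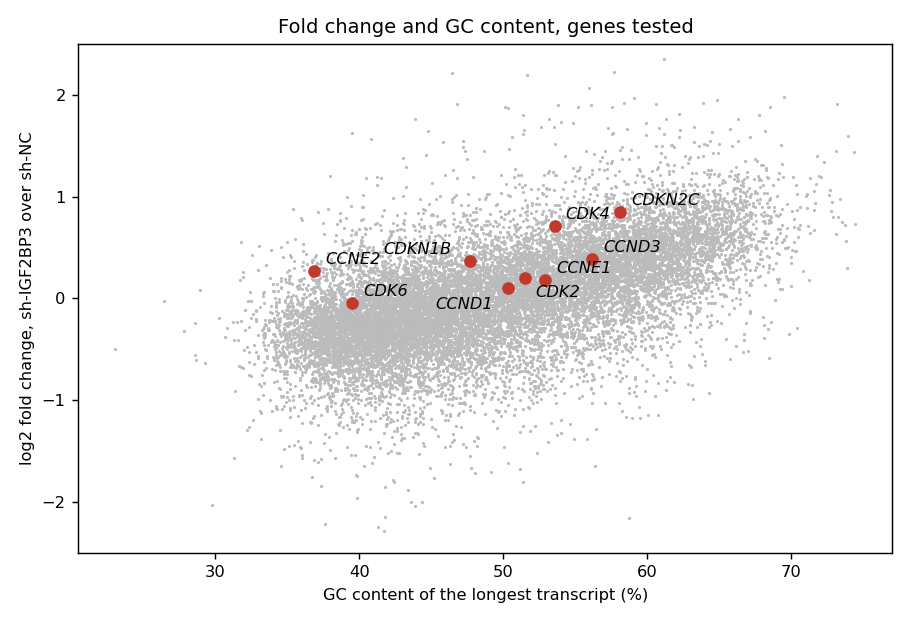
Log2 fold change (vertical axis, sh-IGF2BP3 over sh-NC, no correction) against the GC content of each gene's longest transcript (horizontal axis, %) for 16229 tested genes (grey) and the 9 members (red), with 7 genes beyond the vertical axis not drawn. The cloud climbs with GC content, and CDK4, CDKN2C, CDKN1B and CCNE2 sit in its upper part while CCND1, CDK2 and CCNE1 sit near its middle.

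The size of these differences depended on single libraries. sh-NC 3 was the lowest of the 6 libraries for 7 of the 9 members, CCND1, CCND3, CDK4, CDK2, CCNE1, CCNE2 and CDKN2C, with a median deviation from the 6-library mean of −0.41 in log2 CPM. The medians of the other libraries were 0.10 and −0.08 for control libraries 1 and 2, and 0.08, 0.13 and 0.28 for the knockdown libraries. Leaving out the lowest control library raises the control mean by construction, so a smaller fold change without it is no separate evidence. Without sh-NC 3, the median log2 fold change of the members was 0.12, with 6 above zero and 3 below, and 0 members had an unadjusted p under 0.05 in edgeR, against 11.4% of all genes tested. CDK4, CCND3 and CDKN2C still did not overlap between the groups then, against 14.7% of all genes that were higher without overlap and 14.6% that were lower. Without sh-NC 1, the median was 0.44, and CCND1, CCND3, CDK4, CDKN1B and CDKN2C did not overlap, but such genes were also more frequent among all genes, at 24.3% higher and 25.2% lower. In the same setting 4 members had an unadjusted p under 0.05 in edgeR, against 31.8% of all genes tested. Without sh-IGF2BP3 3, the median was 0.18, with 7 members above zero and 2 below.

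**Figure D4:**
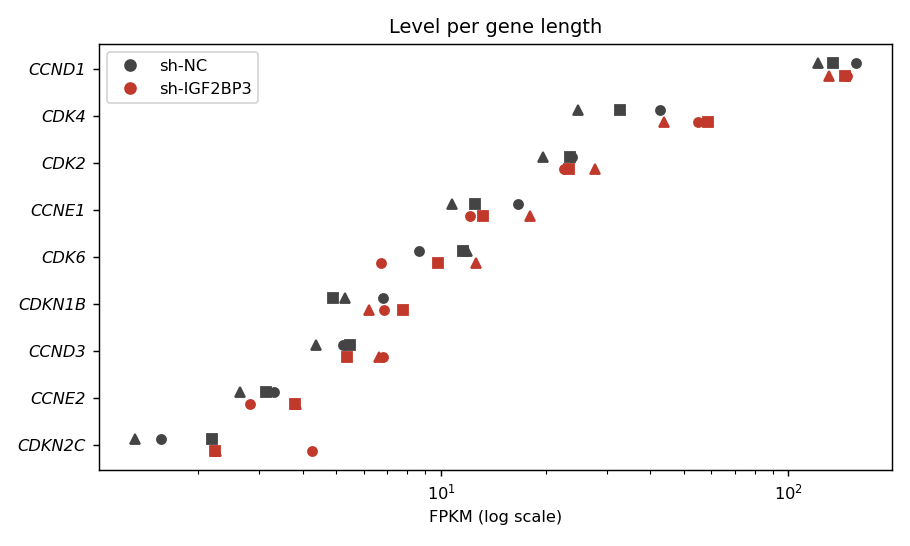
FPKM of the 9 tested members (horizontal axis, log scale) in sh-NC (grey, upper row of each gene) and sh-IGF2BP3 libraries (red, lower row), with circle, square and triangle for libraries 1, 2 and 3, some of which hide each other. CCND1 lies above all other members in every library, and CDKN2C has the lowest median.

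Per gene length, the order of the members over the 6 libraries was CCND1 with a median of 140.1 FPKM, then CDK4 (43.3), CDK2 (23.4), CCNE1 (12.9), CDK6 (10.7), CDKN1B (6.51), CCND3 (5.43), CCNE2 (3.22), CDKN2C (2.21) and CCND2 (0). The ranges of CDK4 and CDK2 overlapped, as did those of CCNE1 and CDK6, CDK6 and CDKN1B, CDKN1B and CCND3, and CCNE2 and CDKN2C. CCND1 stood apart, since its lowest library, at 122 FPKM, was above the highest of CDK4, at 58.8 FPKM. The order depended on the length used. The FPKM of CDKN1B rests on 9255 bases while its principal transcript has 2657, and per kilobase of principal transcript CDKN1B ranked 4, above CCNE1, CCND3 and CDK6.

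Over the 6 libraries, the member most like CCND1 in its deviations from the mean was CDKN1B, with a mean absolute difference of 0.13 in log2 CPM, which ranked 838 in closeness among the 13139 protein-coding genes compared. The closest were MMACHC (0.024), CTBP2 (0.036) and TBL2 (0.042).

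The wider pathway was described with 6 lists of cell cycle genes, chosen to be read beside the members. None of their tested genes was called in edgeR with all 6 libraries, when 0% of all genes were called. Their values in DESeq2 are not given here. Without sh-NC 1, when 10% of all genes passed an adjusted p of 0.05 as higher and 5.75% as lower, edgeR gave such a p to 11 higher genes of the G1/S list, 2 of the SCF list, 1 for CDK activation and 1 of the G2/M list, and to 2 higher and 2 lower genes of the E2F and pocket protein list. The list of 27 G1/S genes, which E2F induces for DNA replication, had a median log2 fold change of 0.39, with 24 above zero. At an unadjusted p under 0.05, 10 of them were higher and 0 lower, against the 13.6% and 8.54% of all genes, and 11 did not overlap, all higher, against 13.2%. The replication licensing factor CDT1 measured 96.7, 70.8 and 43.6 CPM in the controls against 159, 135 and 110.1 CPM in the knockdown (log2 fold change 0.94, adjusted p = 0.103, edgeR). MCM2, a subunit of the replicative helicase, had a log2 fold change of 0.88 and TK1, the thymidine kinase of the salvage pathway, one of 0.84. With the GC and length trend removed these values were 0.34 for CDT1, 0.58 for MCM2 and 0.29 for TK1. The list median was then 0.34 and all 27 genes were above zero, against 8616 of all 16753 genes tested. This was not particular to the G1/S list, since all 9 members, all 9 SCF genes and all 4 genes for CDK activation were also above zero. Of the 27 G1/S genes, 5 had an unadjusted p under 0.05 in edgeR, against 10.5% of all genes in either direction. sh-NC 3 was the lowest library for 23 of the 27, so leaving it out raises their control mean by construction. Without sh-NC 3 the median was 0.16, with 20 above zero. At an unadjusted p under 0.05 in edgeR, 5 were then higher, against 11.4% of all genes in either direction. Without sh-NC 1 the median was 0.58, with 19 of the 27 higher at an unadjusted p under 0.05 in edgeR, against 31.8% of all genes in either direction.

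Among 16 E2F and pocket protein genes the values without correction went both ways, with 8 above zero and a median of −0.00055. With the GC and length trend removed, 13 were above zero and 3 below, with a median of 0.11. Of all 16753 genes tested, 8616 were above zero with that correction. At an unadjusted p under 0.05 in edgeR, 0 of the list were then left, against 10.5% of all genes in either direction. E2F1, an activating E2F, measured 35.2, 34.9 and 24.1 CPM in the controls against 65.2, 47.7 and 40.2 CPM in the knockdown (log2 fold change 0.70, adjusted p = 0.122, edgeR), but its value was 0.15 with the GC and length trend removed. RBL2 (p130), the pocket protein of quiescent cells, measured 32.4, 51.6 and 71.4 CPM in the controls against 31.1, 29.4 and 34.9 CPM in the knockdown. Its highest library was thus sh-NC 3, the library in which most members were lowest, and its log2 fold change of −0.70 (adjusted p = 0.133, edgeR) was −0.41 with the trend removed. E2F4, a repressive E2F, had a log2 fold change of 0.49, or 0.12 with the trend removed. At an unadjusted p under 0.05, 2 of these genes were higher and 1 was lower, again against 13.6% and 8.54% of all genes.

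The 9 genes of the SCF ubiquitin ligase and of cyclin D turnover had a median of 0.35, with 3 higher and 0 lower at an unadjusted p under 0.05 (13.6% and 8.54% of all genes). CKS2, of the CKS family of small CDK-binding proteins, measured 60.2, 51.3 and 43.3 CPM in the controls against 73.8, 114 and 67.0 CPM in the knockdown (log2 fold change 0.72, adjusted p = 0.117, edgeR). RBX1, the RING subunit of the ligase, had a log2 fold change of 0.69. Both values were larger with the GC and length trend removed, at 0.90 and 0.82, while FBXO31, an F-box protein, went from 0.40 to 0.13.

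The remaining lists were small. Of 4 genes for CDK activation, CDC25A, a phosphatase that activates CDK2, had a log2 fold change of 0.58, and the subunits of the CDK-activating kinase CCNH (−0.23) and MNAT1 (0.20) lay nearer to zero, with a list median of 0.10. Of 4 other CDK inhibitors, with a median of 0.27, CDKN1C (p57) measured 2.77, 2.69 and 1.99 CPM in the controls against 7.43, 5.36 and 2.33 CPM in the knockdown, so that the groups overlapped. Its log2 fold change was 1.02, or 0.37 with the trend removed, and the values of CDKN2D and CDKN3 were 0.44 and 0.10. CDC25A and CDKN1C, both higher, were the genes of these lists with an unadjusted p under 0.05, against 13.6% of all genes higher and 8.54% lower. With the GC and length trend removed, 1 gene for CDK activation and 0 of the other inhibitors were at that level, against 10.5% of all genes in either direction. The 8 G2/M genes had a median of 0.26, with 2 higher at an unadjusted p under 0.05 (13.6% of all genes), the cyclin CCNF (0.46) and the mitotic kinase PLK1 (0.49), followed by cyclin B1, CCNB1 (0.38). Without sh-NC 3, the medians were 0.04 for CDK activation, 0.23 for the other inhibitors, −0.12 for E2F and pocket proteins, 0.20 for the SCF list and 0.13 for the G2/M list. Without sh-NC 1, they were 0.12, 0.25, 0.09, 0.46 and 0.29 in the same order.

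**Figure D5:**
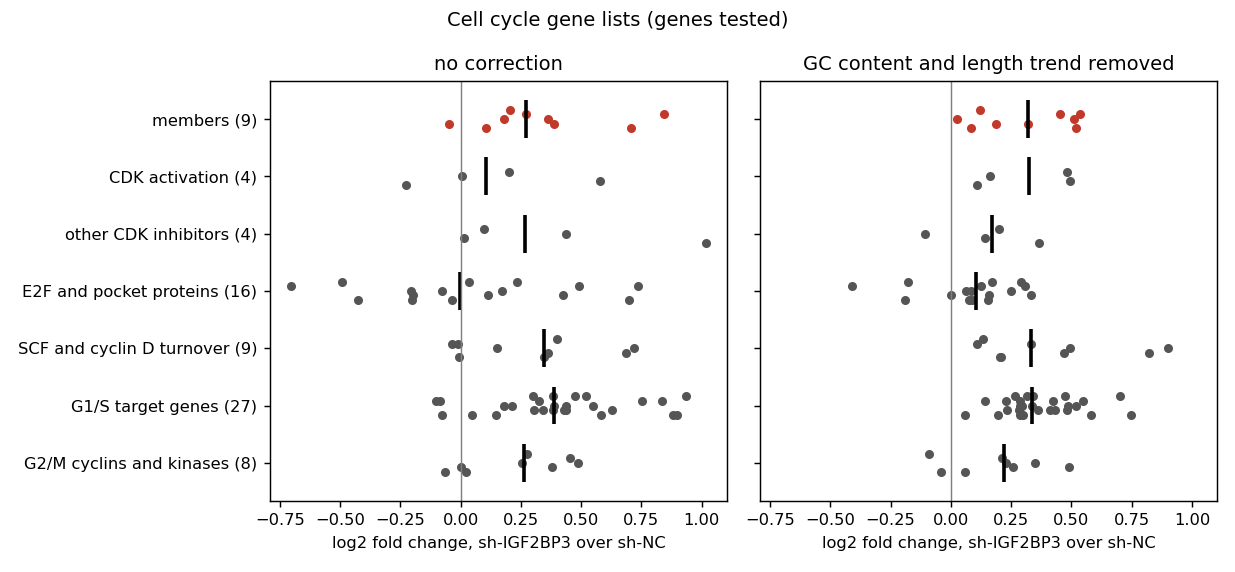
Log2 fold change of each tested gene (horizontal axes, sh-IGF2BP3 over sh-NC) in the 9 members (red) and 6 lists of cell cycle genes (grey), with a bar at the median, without correction (left) and with the trend in GC content and gene length removed (right). The G1/S list has a median of 0.39 on the left and 0.34 on the right, where all 27 of its genes lie above zero. So do all 9 members and all genes of the SCF and CDK activation lists.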

How the data were processed

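Total RNA of HCT116 cells was sequenced after TruSeq preparation. The authors deposited raw counts per Ensembl gene and FPKM values, which are those counts divided by library total and a gene length. The build was GRCh38 and base calling used CASAVA per the submitters' processing notes. Aligner, counter and strand setting are not given in the sources used here.

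Group tests used edgeR 4.0.16 under R 4.3.3 (filterByExpr, TMM, quasi-likelihood test, BH adjustment over 16753 genes, no further term). Alternatives used DESeq2 1.42.0 and limma 3.58.1. Trends with GC content (GENCODE 29 longest transcript) and gene length were estimated per library by natural splines (5 degrees of freedom) on the deviation of log2 CPM (prior count 2) from the gene's mean and entered as offsets. Even the closest libraries of a group differed by more than counting noise (chi-square over degrees of freedom 19.0), and none was counted as a duplicate. Scripts were tested on simulated data. Counting error only is covered by the 3-count floor.

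The members, lists and the rule for naming genes (all members, and up to 3 genes per list with the smallest p) were chosen with earlier results of these data known. The lists do not hold every gene of the pathway.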

Additional observations from a re-analysis of the deposited data

How the results depend on the processing

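Of 162 values of the 9 members under 18 alternatives, 152 kept their direction and their side of an adjusted p of 0.05. CDK6 changed sign with the trend removed in GC content (0.24), in GC content and length (0.32), in both with the replicate block (0.29), and in the principal transcript's GC content and length (0.40, chosen after seeing the data). Leaving out one library at a time gave −0.30 to 0.18 for CDK6, −0.039 to 0.27 for CCND1, −0.038 to 0.44 for CCNE1 and 0.47 to 0.99 for CDK4, whose adjusted p was under 0.05 only without sh-NC 1 (0.00639, edgeR). Members without overlap numbered 3, against 24.2% of all genes in either direction. They numbered 2 with no filter on low counts (CCND3, CDKN2C) and 2 on the FPKM scale (CDK4, CDKN2C). Requiring 10 or more counts per library left 1 (CDKN2C). Removal of each trend left 1 (CCNE2), against 15.2% for GC content and length and 14.9% for the principal transcript. With a library left out there were 2 to 5. The 5 came without sh-NC 1, when 24.3% of all genes were higher without overlap and 25.2% lower. Without sh-NC 3 there were 3, against 14.7% and 14.6%. For the other settings no share of all genes is given, so their counts only describe the members. They cannot be read as more or fewer than among all genes. Over all genes, 0 were called higher and 0 lower, against 560 and 136 with DESeq2, 687 and 150 with no filter on low counts, 1 higher with RLE normalization, 1 higher with at least 10 counts in every library, 1 lower with log2(FPKM + 1), and 0 to 1739 higher and 0 to 985 lower with a library left out, the most without sh-NC 1. The cause was not tested. Libraries with the same replicate number did not deviate together (correlations of −0.28, −0.19 and −0.043), so, although the study speaks of pairs of control and knockdown cells, the numbers were not taken as pairs, and the replicate block gave 0 calls and a log2 fold change of 0.75 for CDK4 (adjusted p = 0.108, edgeR). Lists and the CCND1 interval without a library, and cyclin shares by principal transcript, were added after seeing the data. With 3 libraries a group, the standard errors of 0.19 to 0.32 on the log2 scale limit what could be called.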
